A study of Rattus norvegicus with 16 samples.

Results

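Immediate early genes were followed in rat dorsal root ganglia (DRGs) after tumor cell implantation (TCI). The set held 10 members, Fos, Fosb, Junb, Egr1, Egr3, Nr4a1, Arc, Ier2, Dusp1 and Btg2, found by their gene symbol among the 21021 genes listed for each sample. Of the 10 members, 9 passed the filter on low values and were tested together with all 14023 genes that passed, and Fosb did not pass.

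Immediate early genes are transcribed within minutes of a stimulus from transcription factors that are already in the cell, among them SRF and CREB, and their mRNAs are short lived. In sensory neurons they are widely used as signs of recent activity, but glia and immune cells transcribe most of them too, and handling, anesthesia or tissue damage before freezing can also induce them. Fos, Fosb and Junb encode subunits of the AP-1 transcription factor, Egr1 and Egr3 zinc finger factors and Nr4a1 an orphan nuclear receptor. Arc encodes a cytoskeletal protein of neurons that regulates AMPA receptor trafficking, Ier2 a nuclear regulator, Dusp1 a phosphatase that shuts off MAP kinases, and Btg2 an antiproliferative cofactor of mRNA deadenylation.

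All rats were adult female Sprague-Dawley rats. TCI rats received Walker-256 mammary carcinoma cells in the left tibia, and DRGs L3 to L5 of the injected side of 1 animal were pooled as 1 sample on day 1, 7 or 14, with 4 samples in each group. Sham rats received no living tumor cells, the injected material being PBS by the labels and boiled tumor cells by the methods, and all 4 sham samples were labelled as day 14. Differences of days 1 and 7 from sham therefore cannot be told apart from the time since surgery. The DRGs were taken under deep anesthesia and flash frozen by the labels, and the time from anesthesia to freezing is not given in the sources used here.

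The tables gave FPKM, fragments scaled by the length of the gene and by the mapped fragments of the sample, which is a level per length, so that genes can be compared. The number of reads behind a value is unknown, and no counting error was computed. The depth of the 16 samples relative to each other, read from the steps of 52 very low genes, spanned 0.920 to 1.19. These genes were chosen for values above 0 that differed little between samples, which limited the span in advance. The estimate rests on 6 to 25 values per sample, each assumed to be the same step, so similar depth is not shown. For day 1 the study left out sample 2 and for day 7 sample 3, for their low correlation with the others, so values are over the other 14 samples (4 sham, 3 of day 1, 3 of day 7 and 4 of day 14) unless stated. These 2 samples stood apart here too. Sample 3 of day 7 had 23160 FPKM in the sum of 10 skeletal muscle markers. The sum was 10.02 to 11.34 FPKM in sham samples 1, 2 and 3, while sham sample 4, which was kept, stood apart with 574 FPKM. Sample 3 of day 7 also had 5880 FPKM in the sum of 8 neuron markers, against 9324 to 10095 in the sham samples. Sample 2 of day 1 had 20143 FPKM in the sum of 5 Schwann cell markers, against 12178 to 13565 in the other day 1 samples. All 8 neuron markers of the labelled tissue passed the filter on low values. Whole ganglia were sequenced, and in them fewer cells of a type and less RNA per cell cannot be told apart.

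The members covered a wide range of levels. By the mean over 14 samples the order was Nr4a1 (22.7 FPKM), Junb (13.5 FPKM), Dusp1 (9.48 FPKM), Ier2 (6.23 FPKM), Egr1 (5.63 FPKM), Btg2 (3.92 FPKM), Egr3 (3.02 FPKM), Fos (2.83 FPKM), Arc (1.36 FPKM) and Fosb (0.431 FPKM). Each gene and its neighbour in this order overlapped in their ranges over the 14 samples. Nr4a1 and Junb had higher means than 72.7% and 59.2% of the tested genes, Fos stood above 19.7% and Arc above 7.61%. Fos, often taken as the reference marker of activated neurons, was thus a low transcript in these ganglia.

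On day 1 no tested member was called different from sham. In the limma fit over all tested genes 0 of 9 members had an adjusted p of at most 0.05, their adjusted p lay between 0.964 and 0.999, and 0 of 9 had an unadjusted p below 0.05, beside 2.91% of all genes higher and 2.32% lower at that limit. Among all genes, 0% passed as higher and 0% as lower on this day at the same limit, and 0% passed the study's thresholds, an adjusted p of at most 0.001 with a change of 1 or more on the log2 scale. At these thresholds the study itself, with a different method, reported both up- and down-regulated genes on day 1. The median log2 fold change of log2(FPKM + 1) was 0.00 over the 9 members and 0.00 over all genes. Fosb was lower in all 3 samples of day 1 (0.17 to 0.19 FPKM) than in every sham sample (0.21 to 0.43 FPKM), which is less than 1 FPKM throughout and was not tested in this fit. The groups did not overlap for 5.73% of the tested genes in this direction and for 6.17% in the other.

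On day 7 Junb and Ier2 were called higher than sham and Arc lower, and on day 14 Arc remained below sham. The call of Ier2 was close to the limit and was lost in many of the alternative fits. Of the 9 tested members, 2 were higher and 1 lower on day 7 at an adjusted p of at most 0.05 in limma, where 14.5% of all tested genes were higher and 3.45% lower. With quantile normalization the day 7 split became 1 higher (Junb) and 2 lower (Egr3 and Arc). In that fit 1341 of all 14023 genes were higher and 2320 lower. With upper quartile scaling the split was 1 higher and 1 lower, where 1560 of all genes were higher and 1129 lower. Without such scaling, on day 14 none was higher and 1 was lower, where 11.9% of all genes were higher and 3.21% lower. The 2 higher members of 9 on day 7 are near the number that the share over all genes would give. At the study's thresholds 0 of 9 members passed on either day, against 1.83% of all genes on day 7 and 0.642% on day 14. With an unadjusted p below 0.05, 3 members were higher and 2 lower on day 7, beside 22.6% and 8.57% of all genes, and 2 were higher and 1 lower on day 14, beside 20.8% and 9.16%, so that the members lay near the background. The members' median log2 fold change was 0.23 on day 7 and 0.10 on day 14, beside 0.04 and 0.03 over all genes. Without overlap with the sham samples, 2 tested members were higher and 1 lower on day 7, where 23.8% of all genes were higher in this sense and 10.1% lower. The same count was 0 higher and 1 lower on day 14, beside 13.8% and 5.38% of all genes. The sham samples are shared by these comparisons, so the days are not independent of each other.

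**Figure D1:**
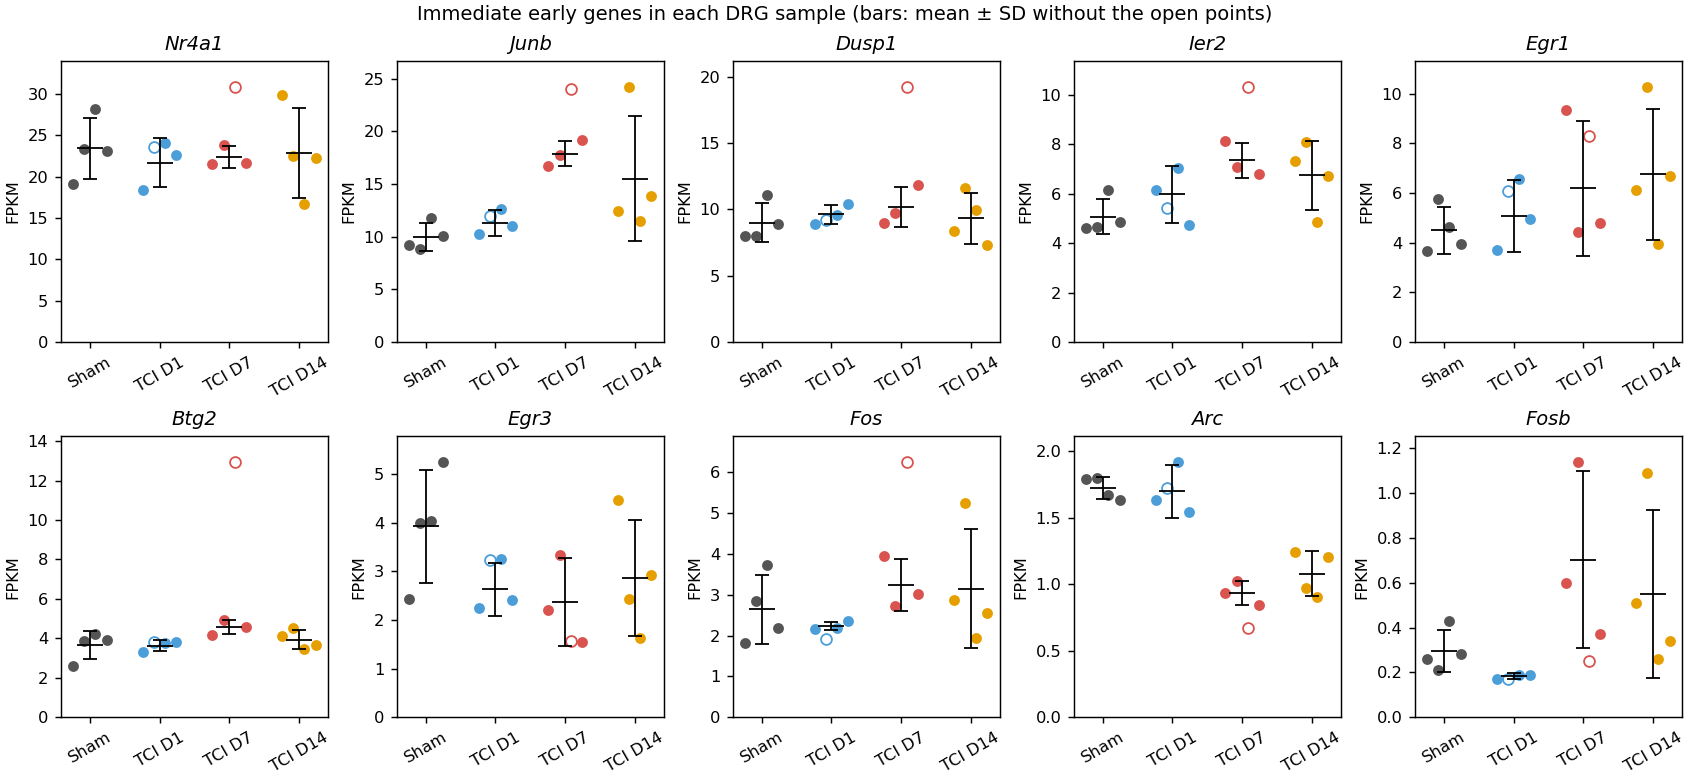
FPKM (vertical axes, linear from 0) of the 10 members in every sample of the sham and TCI day 1, 7 and 14 groups, in the order of their mean. Filled points are the 14 samples used, open points the 2 that the study left out, and bars the mean ± SD of the filled points. Junb and Ier2 of day 7 lie above all sham points and Arc of days 7 and 14 below them, while the open day 7 point is the highest of all 16 samples for Fos, Nr4a1, Ier2, Dusp1 and Btg2.

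**Figure D2:**
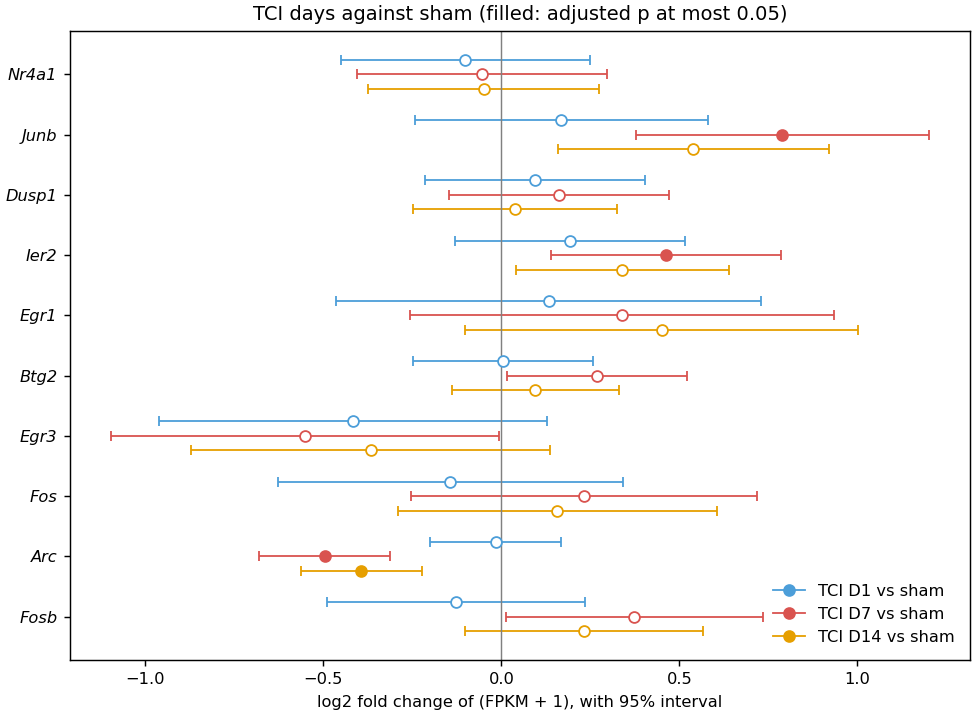
Log2 fold change of (FPKM + 1) of each TCI day against sham (horizontal axis) for the 10 members, with 95% intervals from limma over 14 samples. Filled points have an adjusted p of at most 0.05, which holds for Junb, Ier2 and Arc on day 7 and for Arc on day 14. Fosb comes from the fit without the filter on low values.

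Junb encodes the AP-1 subunit JunB, which pairs with Fos proteins. The sham samples had 9.17, 8.87, 11.81 and 10.06 FPKM, those of day 1 had 10.22, 12.66 and 11.06 FPKM, those of day 7 had 16.73, 17.78 and 19.18 FPKM, and those of day 14 had 12.41, 24.25, 11.53 and 13.91 FPKM. All 3 samples of day 7 were above every sham and every day 1 sample, whereas 1 sample of day 14 fell within the sham range and 1 was far above the rest. The mean was 9.98 ± 1.32 FPKM (SD, n = 4) in sham and rose to 17.9 ± 1.23 FPKM (SD, n = 3) on day 7, which is 1.79 times the sham mean. In limma the log2 fold change was 0.79 (SE 0.190, adjusted p = 0.0115), and leaving out each sample in turn kept the adjusted p at 0.0451 or below. On day 14 the mean was 15.5 ± 5.90 FPKM (SD, n = 4) and the log2 fold change 0.54 (SE 0.176) did not pass (limma, adjusted p = 0.0571). Without sample 2 of day 14, which had 24.25 FPKM, it was 0.31 (limma, adjusted p = 0.0613), and it passed without sample 1 or 3 of that day (0.62 and 0.65, limma, adjusted p = 0.0454 and 0.0251). The direct comparisons between days did not pass either, with a log2 difference of 0.62 for day 7 over day 1 (limma, adjusted p = 0.0729, or 0.00387 with only the 2 groups in the fit and 0.00154 and 0.0485 without sample 2 or 3 of day 14) and −0.25 for day 14 against day 7 (limma, adjusted p = 0.721). With all 16 samples, Junb on day 7 was higher than sham by 0.89 on the log2 scale (limma, adjusted p = 0.00290) and higher than day 1 by 0.70 (limma, adjusted p = 0.0170).

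Ier2 encodes a small nuclear protein induced by growth factors. Its values were 4.63, 4.65, 6.13 and 4.87 FPKM in sham, 6.15, 7.04 and 4.73 FPKM on day 1, 8.14, 7.09 and 6.8 FPKM on day 7, and 7.33, 8.09, 4.84 and 6.71 FPKM on day 14. The day 7 samples were all above the sham samples, and the day 1 and day 14 samples overlapped with them. The mean rose from 5.07 ± 0.715 FPKM (SD, n = 4) to 7.34 ± 0.705 FPKM (SD, n = 3) on day 7, with a log2 fold change of 0.46 (SE 0.150, limma, adjusted p = 0.0486). This call was close to the limit. Leaving out each sample in turn gave an adjusted p of 0.0149 to 0.162 in limma, and the call was lost in 9 of 14 cases, without sample 1, 2 or 4 of sham, sample 1 of day 1, sample 1, 2 or 4 of day 7, or sample 1 or 4 of day 14. It was also lost with quantile normalization (limma, adjusted p = 0.0834) and upper quartile scaling (limma, adjusted p = 0.0741), without the trend (limma, adjusted p = 0.0526), with no filter (limma, adjusted p = 0.0729) and with a mean of at least 5 FPKM (limma, adjusted p = 0.0524). The log2 fold change on day 14 was 0.34 (limma, adjusted p = 0.119), and without sample 3 of that day 0.47 (limma, adjusted p = 0.0178).

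The window of 250 bases before the transcription start is shown for the members called higher on day 7, Junb and, close to the limit, Ier2. It is also shown for Dusp1 and Btg2, which carry the same full cyclic AMP response element as Ier2. Sequences are from RefSeq on build GRCr8, where 7 of 10 members could be matched, and are printed 5′ to 3′ on the strand of the gene with motif matches in capitals. The windows lie at chr19:40080876-40081125 on the plus strand, chr19:40399123-40399372 on the plus strand, chr10:17184603-17184852 on the plus strand and chr13:48087691-48087940 on the minus strand, upstream of each gene's first exon.
Junb: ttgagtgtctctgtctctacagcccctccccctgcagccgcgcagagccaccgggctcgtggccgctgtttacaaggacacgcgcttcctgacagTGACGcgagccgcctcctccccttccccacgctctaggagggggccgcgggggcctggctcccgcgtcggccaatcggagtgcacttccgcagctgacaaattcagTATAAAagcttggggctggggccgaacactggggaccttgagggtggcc
Ier2: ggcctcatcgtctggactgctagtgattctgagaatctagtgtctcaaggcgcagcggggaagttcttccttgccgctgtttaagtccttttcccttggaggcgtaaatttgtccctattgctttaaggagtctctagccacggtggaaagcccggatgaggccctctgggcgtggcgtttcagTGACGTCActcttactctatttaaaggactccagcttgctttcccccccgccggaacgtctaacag
Dusp1: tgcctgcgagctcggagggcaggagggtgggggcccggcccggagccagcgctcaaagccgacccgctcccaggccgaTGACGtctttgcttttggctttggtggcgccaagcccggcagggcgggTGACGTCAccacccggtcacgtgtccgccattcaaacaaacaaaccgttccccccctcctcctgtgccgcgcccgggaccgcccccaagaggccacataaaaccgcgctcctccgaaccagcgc
Btg2: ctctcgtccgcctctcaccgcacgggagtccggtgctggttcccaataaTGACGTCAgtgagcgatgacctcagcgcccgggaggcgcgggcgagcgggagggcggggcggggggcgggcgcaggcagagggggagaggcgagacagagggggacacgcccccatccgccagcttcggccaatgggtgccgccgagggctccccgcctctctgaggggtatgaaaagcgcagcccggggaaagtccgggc
The motifs, searched on both strands, were the full element TGACGTCA, its core TGACG, which a full element holds once on each strand, the AP-1 site TGANTCA, the EGR site GCGTGGGCG, the TATA box TATAAA and the CArG box, the binding motif of SRF. The full element was present in 3 of 7 members, Ier2, Dusp1 and Btg2, and in 1.59% of 33469 rat promoter windows of this length. Its core was present in 6 of 7 members and in 18.2% of windows. In Junb the core began 155 bases and a TATA box 49 bases before the start, and in Ier2 the full element began 66 bases before it. A CArG box was found in 1 of 7 members, Egr1, and in 1.5% of windows. The letters TATAAA were found in 2 of 7 members, Junb and Fosb, and in 12.9% of windows. In Fosb they lay on the strand opposite to the gene, 180 to 175 bases before the start, so no TATA box of Fosb is shown. The AP-1 site was in 0 of 7 members and 6.34% of windows, and the EGR site in 0 of 7 and 0.478%. These are matches of letters in a short window and not measured binding.

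Arc, the neuronal cytoskeletal gene, had the lowest adjusted p of the 9 tested members on both later days. It had 1.79, 1.8, 1.67 and 1.63 FPKM in sham, 1.63, 1.92 and 1.54 FPKM on day 1, 0.93, 1.02 and 0.84 FPKM on day 7, and 1.24, 0.97, 0.9 and 1.2 FPKM on day 14. Every sample of days 7 and 14 was below every sample of sham and day 1, and sham and day 1 overlapped. The mean fell from 1.72 ± 0.0854 FPKM (SD, n = 4) to 0.930 ± 0.0900 FPKM (SD, n = 3) on day 7, which is 0.540 times the sham mean, and was 1.08 ± 0.168 FPKM (SD, n = 4) on day 14, 0.626 times. On the scale of log2(FPKM + 1), which understates changes of a gene this low, the differences were −0.50 on day 7 (SE 0.0849, limma, adjusted p = 0.00155) and −0.39 on day 14 (SE 0.0786, limma, adjusted p = 0.00598). With a pseudocount of 0.1 they were −0.83 and −0.64 (limma, adjusted p = 0.00146 and 0.00603). Arc was also lower on day 7 than on day 1 (−0.48, limma, adjusted p = 0.00465) and lower on day 14 than on day 1 (−0.38, limma, adjusted p = 0.0198), but the last call was lost when only the 2 groups entered the fit (limma, adjusted p = 0.150) and without sample 1 or 3 of day 1 (limma, adjusted p = 0.0637 and 0.0987). Days 7 and 14 differed by 0.10 with a 95% interval that held 0 (limma, adjusted p = 0.745). The values of the 2 left out samples, 1.72 FPKM on day 1 and 0.67 FPKM on day 7, lay on the same sides.

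Because Arc is transcribed mainly in neurons, its values stand here beside 8 neuron markers. Their summed level was 9324 to 10095 FPKM in sham, 9449 to 10162 FPKM on day 1, 8359 to 9157 FPKM on day 7 and 8420 to 10457 FPKM on day 14. In limma 3 of the 8 markers were lower on day 7 (Nefh, Snap25 and Rbfox3) and 2 on day 14 (Nefh and Snap25) at an adjusted p of at most 0.05. Of all tested genes 3.45% were lower on day 7 and 3.21% on day 14. The marker counts depended on the fit, with 4 and 0 for all 16 samples, 4 and 2 with quantile normalization, and 5 and 3 with upper quartile scaling. Over all genes 2320 and 1547 were lower with quantile normalization, and 1129 and 891 with upper quartile scaling. Per 10000 FPKM of neuron markers, Arc was 1.61 to 1.93 in sham, 1.56 to 1.89 on day 1, between 0.917 and 1.18 on day 7, and between 0.861 and 1.47 on day 14. No sample of day 7 or 14 overlapped with sham on this scale. The part of neuron content in the level of Arc was not tested.

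The Fos family gave no call. Fos had 1.81, 2.84, 3.74 and 2.19 FPKM in sham, 2.17, 2.19 and 2.35 FPKM on day 1, 3.94, 2.72 and 3.03 FPKM on day 7, and 2.87, 5.25, 1.94 and 2.55 FPKM on day 14. Each TCI day overlapped with sham, the day 1 samples lay close together and below those of day 7, and sample 2 of day 14 stood above the other used samples. The log2 fold change on day 7 was 0.23 with a 95% interval of −0.25 to 0.72 (limma, adjusted p = 0.523), and on day 14 it was 0.16 (limma, adjusted p = 0.655). These intervals do not show that Fos was equal between groups. Fosb, whose splice forms include the stable ΔFosB, had 0.21 to 0.43 FPKM in sham and 0.17 to 0.19 FPKM on day 1. On day 7 it had 0.6, 1.14 and 0.37 FPKM and on day 14 it had 0.51, 1.09, 0.26 and 0.34 FPKM, so that 1 sample of each of these days exceeded 1 FPKM. In a fit without the filter, Fosb on day 7 had a log2 fold change of 0.37 (SE 0.166, limma, adjusted p = 0.182).

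Egr1 and Egr3, zinc finger factors that often rise together after neuronal activity, had opposite signs here, and neither passed. Egr1 had 3.65, 5.76, 4.63 and 3.94 FPKM in sham, 3.69, 6.57 and 4.97 FPKM on day 1, 9.34, 4.44 and 4.78 FPKM on day 7, and 6.12, 10.29, 3.94 and 6.67 FPKM on day 14. A single sample, number 1 of day 7 and number 2 of day 14, carried much of each day's mean. The log2 fold changes were 0.34 on day 7 (limma, adjusted p = 0.444) and 0.45 on day 14 (limma, adjusted p = 0.262). Egr3 had 2.43, 3.99, 4.04 and 5.26 FPKM in sham, 2.24, 3.26 and 2.41 FPKM on day 1, 2.21, 3.34 and 1.55 FPKM on day 7, and 4.48, 2.43, 1.64 and 2.93 FPKM on day 14. Egr3 was highest in sample 4 of sham, the sham sample with the most muscle transcripts, and each TCI day overlapped with sham. The log2 fold change of Egr3 was −0.55 on day 7 (limma, adjusted p = 0.154) and −0.37 on day 14 (limma, adjusted p = 0.318), and only with quantile normalization did day 7 pass (−0.76, limma, adjusted p = 0.0284).

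Nr4a1, Dusp1 and Btg2 gave no call at an adjusted p of 0.05. Nr4a1, the nuclear receptor Nur77, ranged from 19.13 to 28.19 FPKM in sham, 18.37 to 24.1 FPKM on day 1, 21.49 to 23.88 FPKM on day 7 and 16.64 to 29.92 FPKM on day 14, and its log2 fold changes were −0.05 on both later days (limma, adjusted p = 0.859 and 0.861). Dusp1, the MAP kinase phosphatase, ranged from 7.97 to 11.12 FPKM in sham, 8.88 to 10.38 FPKM on day 1, 8.97 to 11.84 FPKM on day 7 and 7.29 to 11.64 FPKM on day 14. Btg2 ranged from 2.62 to 4.23 FPKM in sham, 3.3 to 3.81 FPKM on day 1, 4.19 to 4.91 FPKM on day 7 and 3.47 to 4.5 FPKM on day 14. For all 3 genes every TCI day overlapped with sham, and on day 7 Dusp1 had a log2 fold change of 0.16 (limma, adjusted p = 0.485) and Btg2 of 0.27 with a 95% interval of 0.02 to 0.52 (limma, adjusted p = 0.135). The day 7 samples of Btg2 were all above those of day 1, and with all 16 samples its log2 fold change against sham was 0.60 (limma, adjusted p = 0.0843). In the left out sample of day 7, with its muscle transcripts, Dusp1 was 19.26 FPKM and Btg2 12.96 FPKM, both the highest of all 16.

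Read sample by sample, the members were above sham to a different extent in animals of the same group. Of the 10 members, 7 were above every sham sample in sample 2 of day 14, whereas sample 3 of the same day had 0 such members. The count was 5, 4 and 4 in the day 7 samples, 5 and 3 in samples 1 and 4 of day 14, and 1, 4 and 0 in the day 1 samples. Of all tested genes, 36.4% were above every sham sample in sample 2 of day 14 and 39.2% in sample 3, and the share was 39.4% to 44.2% in the day 7 samples and 20.6% to 25.7% in the day 1 samples. Among all 16 samples, the left out sample 3 of day 7 was highest in 5 members and lowest in Arc, and sample 2 of day 14 was highest in Junb and Egr1. Sample 1 of the sham group was lowest in 4 members.

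**Figure D3:**
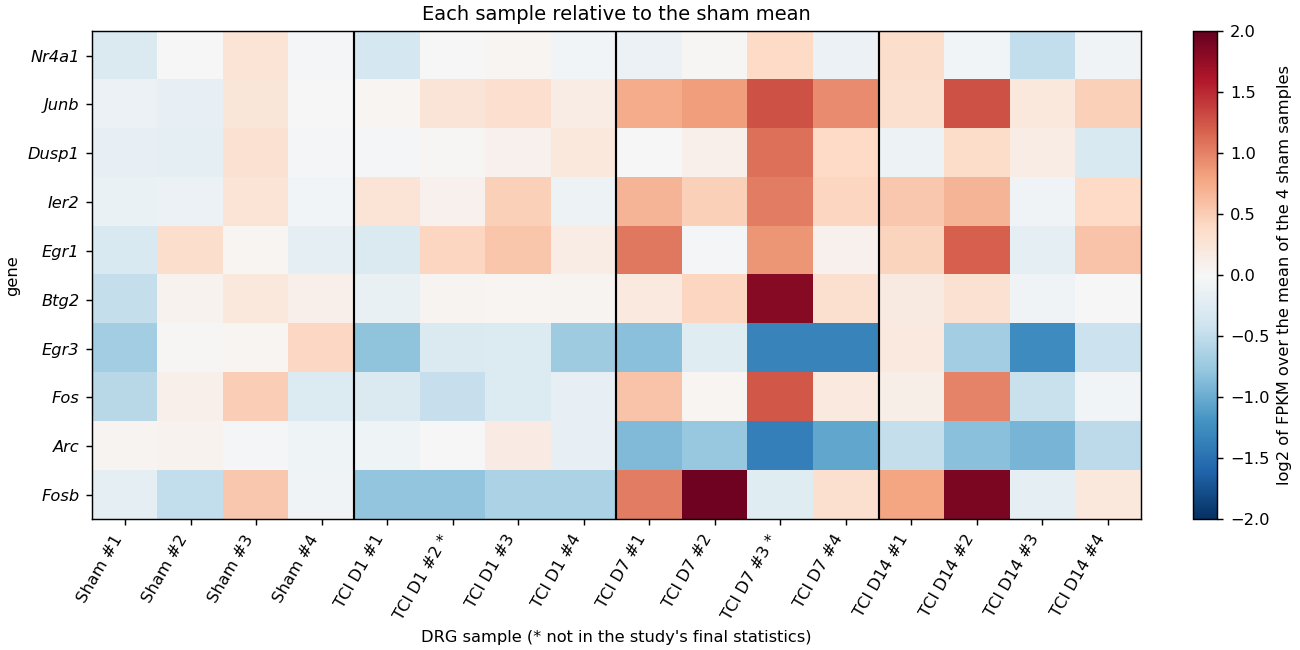
Log2 of each sample's FPKM over the mean of the 4 sham samples (colour scale, red higher and blue lower) for the 10 members (rows) in the 16 samples (columns), where * marks the samples left out by the study. Sample 2 of day 14 is above every sham sample in 7 members and sample 3 of the same day in 0, and Arc is blue in every sample of days 7 and 14.

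Of the 9 tested members, 8 varied more between animals of the same group than the median of genes of like level, Btg2 only slightly. The SD of log2(FPKM + 1) within groups was 0.406 for Egr1, 0.368 for Egr3, 0.326 for Fos and 0.279 for Junb, and the median over all tested genes was 0.113. Among the 500 genes nearest in mean level, Egr1 and Nr4a1 stood at the 95.2 percentile of this SD, Junb at the 94.6, Egr3 at the 91.6, Fos at the 89, Ier2 at the 85.6, Dusp1 at the 84.8 and Btg2 at the 60. Arc was at the 8 percentile with an SD of 0.0884. Its place depended on the scale, since among all tested genes Arc was at the 31.1 percentile with a pseudocount of 1 and at the 58.6 with 0.1. The role of the time between anesthesia and freezing in this spread was not tested.

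**Figure D4:**
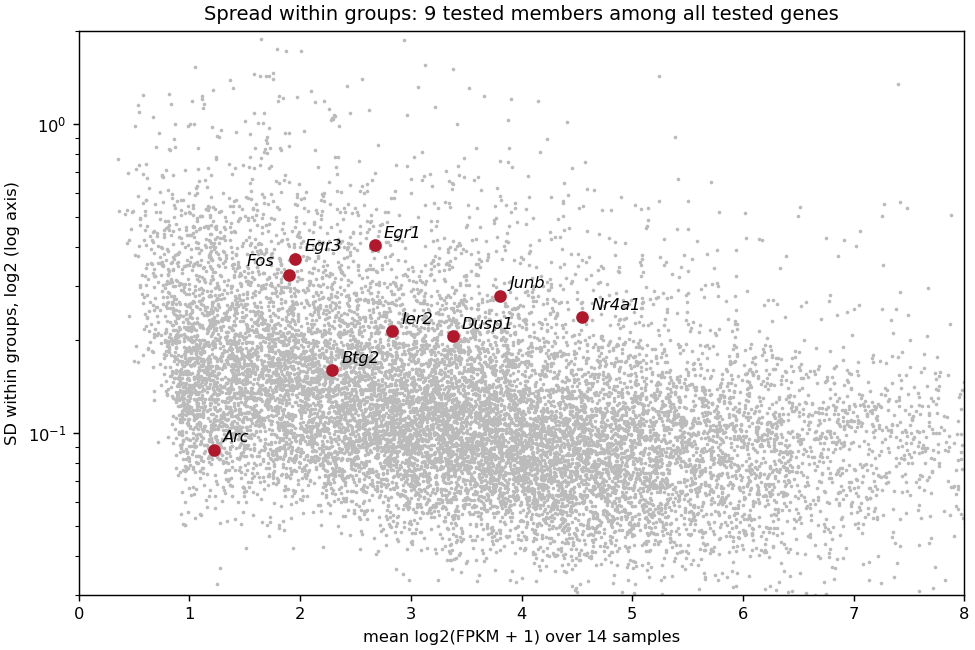
SD of log2(FPKM + 1) within groups (vertical log axis) against the mean of log2(FPKM + 1) over 14 samples (horizontal axis, shown up to 8) for the tested genes (grey) and the 9 tested members (red). Egr1, Egr3, Fos, Junb and Nr4a1 lie in the upper part of the cloud at their level and Arc in the lower part.

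The members' likeness across animals was then described. After each group's mean was removed, Fos had a Pearson r over the 14 samples of 0.767 with Egr1, 0.766 with Junb, 0.688 with Ier2, 0.632 with Btg2, 0.489 with Dusp1, 0.458 with Nr4a1, 0.153 with Egr3 and −0.125 with Arc. Among 13548 genes with a mean of at least 1 FPKM, Egr1 ranked 189 and Junb 192 in likeness to Fos, and none of the 8 other members was among the nearest 100, where r reached 0.797. The 10 genes nearest to Fos were Dhx38 (r = 0.932), Il13ra1 (0.909), Ugt1a7c, Slc20a2, Hnrnpk, Fam96a, Anp32e, RGD1561157, A2m and Slamf8 (0.873). The 10 nearest to Junb were Coro1b (r = 0.951), Parp12, Clic2, Ifi35, Dpp7, LOC100359583, Bak1, Socs1, Ddx41 and Rela (0.926). Sample 2 of day 14 was the highest of the 14 samples for Fos (5.25 FPKM), Junb (24.25 FPKM) and Egr1 (10.29 FPKM). How far the values of r and both gene lists rest on this 1 animal was not tested. Samples share library preparation, depth and cell makeup, so these values describe the 14 samples only.

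Macrophage markers were higher on the days on which the mean of Junb was highest. The 8 macrophage markers summed to 28.5 to 53.1 FPKM in sham, 38.4 to 49.8 FPKM on day 1, 310 to 428 FPKM on day 7 and 164 to 597 FPKM on day 14, and none was at 0 in all samples. In limma 8 of 8 were higher on day 7 and 6 of 8 on day 14 at an adjusted p of at most 0.05, and so were 6 of 6 T cell markers on both days. Of all tested genes 14.5% were higher on day 7 and 11.9% on day 14. The 6 T cell markers summed to only 5.17 to 7.79 FPKM in sham. Whether some passed the filter on low values only through the later days was not examined. Other cell types also stood apart from sham on day 7 without overlap. Fibroblast markers summed to 806 to 926 FPKM against 314 to 441 FPKM, mural cell markers to 77.0 to 94.6 FPKM against 49 to 57.8 FPKM, and neutrophil markers to 4.65 to 19.3 FPKM against 0.63 to 0.98 FPKM. The sample with the highest sum, sample 2 of day 14 with 597 FPKM, was also the one with the highest Junb and Egr1, and the lowest sum of that day, 164 FPKM, was in the sample with the lowest Junb of that day. In between the order differed, since sample 2 of day 7 had the highest sum of that day (428 FPKM) and 17.78 FPKM of Junb, below the 19.18 FPKM of sample 4 (355 FPKM), and sample 1 of day 14 (249 FPKM) had less Junb than sample 4 (185 FPKM). Junb is also transcribed in immune cells. The part of these cells in the level of Junb, Ier2 or any other member was not tested.

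**Figure D5:**
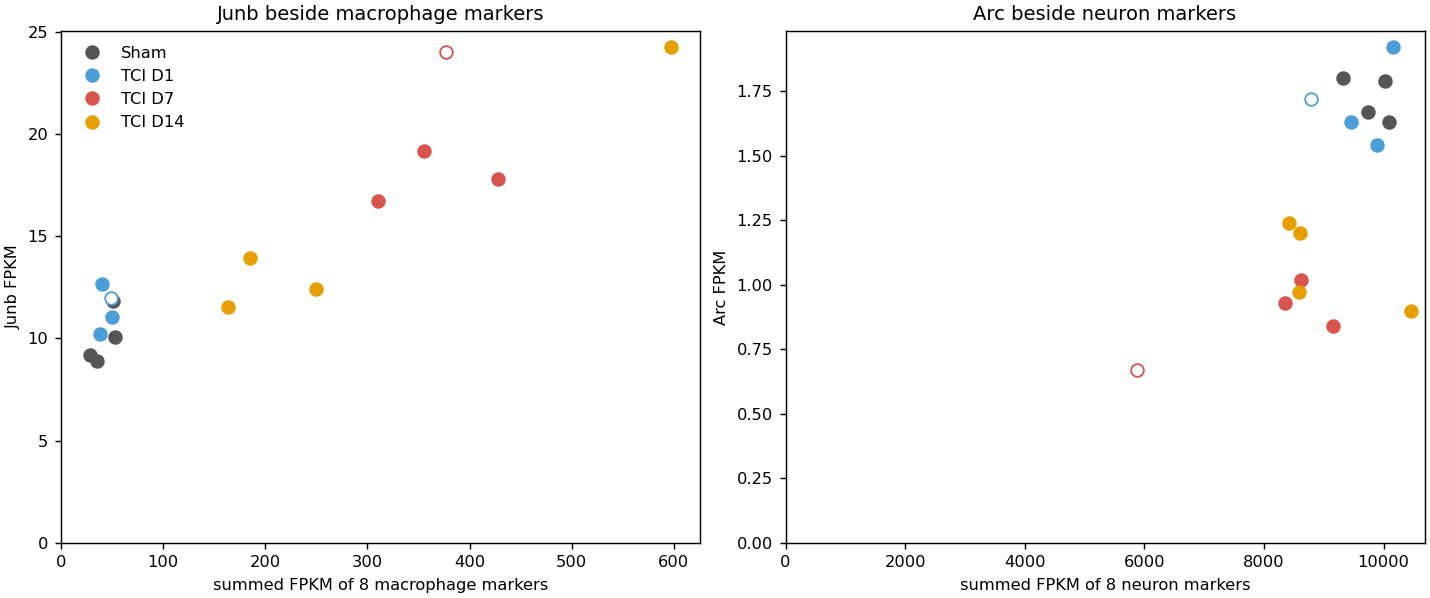
Left, Junb FPKM against the summed FPKM of 8 macrophage markers, and right, Arc FPKM against the summed FPKM of 8 neuron markers, 1 point per sample coloured by group, with open points for the 2 samples that the study left out. Sham and day 1 points lie at low macrophage sums and low Junb, sample 2 of day 14 at 597 and 24.25 FPKM, and Arc of days 7 and 14 lies below that of sham and day 1.

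The relatives of the members were examined in wider lists, with no gene of them past the study's thresholds on any day, and none past an adjusted p of 0.05 on day 1. Of 8 other AP-1 family genes, 5 were higher on day 7 in limma, Jund, Jun, Mafk, Maff and Batf, and 2 on day 14, Jund and Mafk. Over all tested genes at this limit, 14.5% were higher and 3.45% lower on day 7, and 11.9% and 3.21% on day 14. With quantile normalization the day 7 count became 3 higher and 1 lower, where 1341 of all 14023 genes were higher and 2320 lower. With upper quartile scaling it was 4 higher, where 1560 of all genes were higher and 1129 lower. Jund, which encodes the AP-1 subunit JunD, had a sham mean of 78.8 ± 4.52 FPKM (SD, n = 4) and rose to 105 ± 10.01 FPKM (SD, n = 3) on day 7 (limma, log2 fold change 0.41, adjusted p = 0.0200) and 111 ± 18.0 FPKM (SD, n = 4) on day 14 (0.48, adjusted p = 0.00768), and the day 7 call was lost with all 16 samples. Jun rose from 37.5 ± 3.39 to 45.7 ± 3.55 FPKM (SD, n = 4 and 3) on day 7 (limma, log2 fold change 0.28, adjusted p = 0.0245), a call that upper quartile scaling lost. Atf3, a stress-induced factor known from injured sensory neurons, was 7.20 ± 3.56 FPKM (SD, n = 4) in sham and 8.09 ± 1.05 FPKM (SD, n = 3) on day 7 (limma, adjusted p = 0.672), and Fosl2 had a log2 fold change of 0.46 (limma, adjusted p = 0.201).

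Of the other EGR genes and their corepressors Nab1 and Nab2, 3 of 4 were tested and none passed, with Egr2, the EGR factor of Schwann cells, at 0.41 on day 7 (limma, adjusted p = 0.0966). Nr4a2 was the only other NR4A gene tested (0.18 on day 7, limma, adjusted p = 0.277), and Nr4a3 was between 0.15 and 0.5 FPKM in the 14 samples. Npas4, a factor induced by calcium entry in neurons, was between 0 and 0.07 FPKM. Among 15 tested other early transcription factors, 4 were higher on day 7 (Id1, Cebpd, Klf2 and Cebpb) and 2 on day 14 (Id2 and Csrnp1). Of all genes 14.5% and 11.9% were higher on these days. Klf4 (0.50, limma, adjusted p = 0.0524), Klf6 (0.15, adjusted p = 0.264) and the clock gene Per1 (0.37, adjusted p = 0.465) did not pass on day 7. With all 16 samples 6 of the 15 were higher on day 7, Klf4 among them. Array quality weights gave 10 higher, Klf4 and Klf6 among them, and Egr2 passed too, where 3228 of all genes were higher. Quantile normalization gave 4 higher and 1 lower, without Klf4 and Klf6.

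Feedback genes, which end the early response, moved in both directions. Of 25 early feedback and signaling genes, 7 were higher and 2 lower at an adjusted p of at most 0.05 on day 7, and again 7 higher and 2 lower on day 14. Of all genes 14.5% were higher and 3.45% lower on day 7, and 11.9% and 3.21% on day 14. Quantile normalization gave 5 higher and 4 lower on day 7, and 4 higher and 3 lower on day 14. In that fit 1341 of all 14023 genes were higher and 2320 lower on day 7, and 1101 and 1547 on day 14. Zfp36, which encodes the mRNA decay factor tristetraprolin, rose from 6.24 ± 1.34 FPKM (SD, n = 4) to 14.2 ± 1.28 FPKM (SD, n = 3) on day 7 (limma, log2 fold change 1.09, adjusted p = 0.00238) and 12.6 ± 4.01 FPKM (SD, n = 4) on day 14 (0.87, adjusted p = 0.00751). Ier5 rose by 0.59 on day 7 on the log2 scale (limma, adjusted p = 0.0406), a call not kept by either scaling, and Sgk1 had 0.34 (limma, adjusted p = 0.318). Chosen after its values were seen, Dusp2, a phosphatase of immune cells in the family of Dusp1, went from 0.165 ± 0.0480 FPKM (SD, n = 4) to 3.75 ± 2.21 FPKM (SD, n = 3) on day 7 (log2 fold change 1.91). With so low a sham mean, Dusp2 passed the filter on low values only through samples outside sham, so no p is given for it. It is counted among the 7 higher genes on each day.

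Of 9 tested early neuronal and secreted effectors, 1 was higher and 3 lower on day 7, and 1 higher and 1 lower on day 14. The shares over all genes were 14.5% higher and 3.45% lower on day 7, and 11.9% and 3.21% on day 14. Chosen after its values were seen, Bdnf, a neurotrophin whose transcription follows activity, fell as Arc did, from 6.74 ± 1.01 FPKM (SD, n = 4) to 4.27 ± 0.590 FPKM (SD, n = 3) on day 7 (limma, log2 fold change −0.55, adjusted p = 0.00309) and 4.595 ± 0.254 FPKM (SD, n = 4) on day 14 (−0.46, adjusted p = 0.00774). Bdnf kept this call with quantile normalization and upper quartile scaling. Nptx2, a secreted protein of synapses, also chosen so, fell by 0.46 on the log2 scale on day 7 (limma, adjusted p = 0.00932).

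Among 22 upstream regulators, 3 were higher and 0 lower on day 7, and 4 higher and 1 lower on day 14. Beside them, 14.5% of all genes were higher and 3.45% lower on day 7, and 11.9% and 3.21% on day 14. With quantile normalization the counts were 2 higher and 2 lower on each day. In that fit 1341 of all 14023 genes were higher and 2320 lower on day 7, and 1101 and 1547 on day 14. Chosen after their values were seen, Crtc2, a coactivator of CREB, and Rps6ka1, a kinase downstream of ERK, were among the higher genes on both days. Elk3, a partner of SRF, also chosen so, was higher on day 7. Srf and Creb1 themselves did not pass, with Srf at 0.16 (limma, adjusted p = 0.174) and Creb1 at −0.08 (limma, adjusted p = 0.777) on day 7. Lists tied to stress of tissue or animal were looked at beside the members. Of 11 tested heat shock genes, 0 were higher and 1 lower on day 7, and 0 higher and 5 lower on day 14, or 1 lower on day 14 with all 16 samples. The lower counts were 3 on day 7 and 5 on day 14 with quantile normalization, and 3 and 7 with upper quartile scaling. With upper quartile scaling 1129 of all 14023 genes were lower on day 7 and 891 on day 14. Of 11 tested glucocorticoid-induced genes, 3 were higher on day 7 (Sult1a1, Nfkbia and Cdkn1a) and 1 on day 14 (Nfkbia), with 0 lower on either day.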

How the data were processed

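RNA of DRGs L3 to L5 of the injected side was sequenced in 4 sham and 12 TCI samples. Per the labels and the methods, the authors removed low-quality and adaptor reads, mapped clean reads with HISAT and Bowtie2, estimated levels with RSEM, and deposited FPKM values per gene, 1 table for each sample. The labels also name CASAVA 1.4. The methods give BGISEQ-500 as the platform and the labels an Illumina protocol. The genome build, the annotation and the other versions are not given in the sources used here.

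The deposited FPKM were taken as log2(FPKM + 1), and genes reaching 1 FPKM in 3 or more of 14 samples were tested with limma 3.58.1 (trend, 4 groups in 1 fit, R 4.3.3), with p-values adjusted by the Benjamini-Hochberg method over all 14023 genes. Single members were called at an adjusted p of at most 0.05 with no limit on the fold change, and the study's thresholds were kept as the stricter rule. No pair of samples shared over 2.59% of identical values above 0, so none was counted as a copy, and by the methods each sample is 1 animal. The procedure was tested on simulated data. Sample numbers are shared between groups but come from different animals. After each group's mean was removed, same-numbered samples had r above 0.1 in 4 of 18 pairs (r from −0.10 to 0.27, median 0.0026). Samples of different number in different groups had it in 8 of 55 pairs (r from −0.33 to 0.41, median −0.0047).

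Named genes were all 10 members in every sample, 16 fixed genes of the wider lists, and the 10 genes with the highest r to Fos and to Junb. Other genes are named as part of a list or a count, or are said to be chosen after their values were seen. The members and lists were chosen with earlier results of these data known. Promoter windows were searched in Python 3.11.15 (pandas 2.3.3), and figures were drawn with matplotlib 3.10.9. Alternatives were all 16 samples, only the groups compared, no trend, quantile normalization, upper quartile scaling, a pseudocount of 0.1, no filter, a filter on the mean (5 FPKM or more), looser thresholds, the replicate block and each sample left out. Array quality weights, and the wider lists under other scalings, were chosen after seeing the data.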

Additional observations from a re-analysis of the deposited data

Results flagged for a closer look

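In 3 of 40 groups of 4 samples (10 members in 4 groups) 1 value lay far from the others by Dixon's 95% criterion on the ratio of the gap to the whole range, and chance alone gives about 1 in 20 groups. Ier2 was 6.13 FPKM in sample 3 of sham, with the nearest value at 4.87 FPKM (ratio 0.840). Btg2 was 3.3 FPKM in sample 1 of day 1, with the nearest at 3.76 FPKM (ratio 0.902). Btg2 was 12.96 FPKM in sample 3 of day 7, which the study left out, with the nearest at 4.91 FPKM (ratio 0.918).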

How the results depend on the processing

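Junb on day 7 and Arc on days 7 and 14 kept their direction and their side of an adjusted p of 0.05 under every alternative that tested them, and no member passed the study's thresholds under any of them. Arc has a mean under 5 FPKM and was not tested under that filter. The number of members at an adjusted p of at most 0.05 was 3 on day 7 and 1 on day 14. It was 1 and 0 with a mean of at least 5 FPKM, where Arc was not tested and Ier2 lost its call, 1 became 2 on day 14 with array quality weights, and leaving out each sample gave 2 to 3 on day 7 and 1 to 3 on day 14. With an adjusted p of at most 0.05 and no fold limit in place of the study's thresholds the count, 0 on both days, became 3 on day 7 and 1 on day 14.

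Small differences changed sign. With quantile normalization these were Btg2 on day 1 (−0.0075) and on day 14 (−0.026) and Dusp1 on day 14 (−0.032), and Dusp1 on day 14 was also −0.0024 with upper quartile scaling and −0.094 with array quality weights. Nr4a1 was 0.059 on day 7 with all 16 samples and 0.065 on day 14 with array quality weights. Leaving out samples gave ranges across 0 for Arc on day 1 (−0.074 to 0.026), Egr1 on day 1 (−0.039 to 0.31), Btg2 on day 1 (−0.11 to 0.065) and day 14 (−0.020 to 0.16), Fos on day 14 (−0.059 to 0.30), Dusp1 on day 14 (−0.066 to 0.14), and Nr4a1 on day 1 (−0.19 to 0.0089), day 7 (−0.14 to 0.036) and day 14 (−0.18 to 0.086). None of these passed in any fit.

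At its thresholds the study itself, with a different method, reported more genes on both later days than were found here. Over all genes in the present fit, 257 passed these thresholds on day 7 and 90 on day 14. The counts became 413 and 4 with only the 2 groups compared, 164 and 31 with no filter, 577 and 228 with array quality weights, 554 and 363 at an adjusted p of 0.05 with the same fold, and 2512 and 2120 with no fold limit. Day 7 gave 123 with a mean of at least 5 FPKM, and day 14 gave 54 with no trend and 180 with a pseudocount of 0.1. Leaving out each sample gave between 49 and 471 on day 7 and between 15 and 173 on day 14. The 2512 genes at an adjusted p of at most 0.05 on day 7 became 1573 with a mean of at least 5 FPKM and 4423 with array quality weights, and ranged from 1718 to 3110 without single samples. The 2120 of day 14 became 1389 with all 16 samples, 1128 with only 2 groups and 1385 with a mean of at least 5 FPKM, and ranged from 1364 to 2495. Day 1 gave 0, and 0 to 1 without single samples. The cause was not tested. Of the genes called at 0.05 on day 7, 80.7% were higher, 36.6% with quantile normalization and 58.0% with upper quartile scaling, and on day 14 the shares were 78.8%, 41.6% and 59.99%. Quantile normalization moved the median of all genes on day 7 from 0.04 to −0.07 on the log2 scale.

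Of the 14 samples, 6 were closest to one of their own number in another group, which does not settle whether same-numbered samples go together. With the replicate block 112 genes passed the study's thresholds on day 7 and 19 on day 14, and 2 and 1 members passed at 0.05. Ier2 on day 7 (adjusted p = 0.0779 in limma) and Arc on day 14 against day 1 (adjusted p = 0.0527 in limma) no longer passed, and no other call of a member changed. The number of reads is unknown, so low members such as Fosb and Arc have no counting error.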
